A study of Rattus norvegicus with 4 samples.

Results

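Spatial RNA profiles of a rat kidney taken after 1 cycle of a low-salt fasting-mimicking diet and 72 h of refeeding (group healthy_LS-FMD) were compared with those of an untreated kidney (group healthy). These are 2 of the 4 sections of the series, and each is a 10 µm slice of frozen kidney from a Sprague-Dawley rat, placed on a 10x Visium slide that captures RNA on a grid of barcoded spots. Neither rat had been given a kidney toxin. The other 2 sections came from rats injected with puromycin aminonucleoside, a podocyte toxin: PAN_LS-FMD, injected and then put through 6 diet cycles, and PAN, injected only, both taken 6 weeks after the treatment period and 5 months after injection. Their values are given beside those of the 2 compared sections. All spots with at least 500 UMIs were used (unique molecular identifiers, 1 for each captured RNA molecule), which kept 2593 of 2595 spots in the healthy_LS-FMD section and 2866 of 2869 in the healthy section. A spot covers several cells, often of different types. UMIs were summed over the spots of a section, and levels are given in CPM, UMIs per 1000000 UMIs of that section.

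With 1 section from 1 rat in each group, the comparison has no replicate check and no test. The 95% intervals cover counting error only, and a difference between sections cannot be separated from a difference between the rats, the pieces of tissue or the libraries. Space Ranger 1.2.1 made the counts of the healthy_LS-FMD section and of both PAN sections, per the file headers, whereas version 2.0.1 made the counts of the healthy section, so software version and diet cannot be told apart in this comparison. For main genes the PAN sections are given as well, and a number of genes for which the healthy section stands apart from all 3 others are pointed out.

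Fasting turns the body from glucose to fat. Fatty acids released from adipose tissue activate the nuclear receptor PPAR-alpha, which in liver and proximal tubule raises the enzymes of fatty acid oxidation and of ketone body synthesis, while refeeding and insulin act through the SREBP transcription factors to raise the enzymes of fatty acid and sterol synthesis. The proximal tubule also makes glucose and, after the liver, is the main site of gluconeogenesis. A shortage of salt raises, through angiotensin and aldosterone, the sodium channels and transporters of the distal nephron.

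Across the 2 sections, the RNA of several PPAR-alpha target, fatty acid oxidation and gluconeogenesis genes was lower after the diet cycle, with Vnn1 8.86 times and Cyp4a1 5.35 times lower. The RNA of salt and water transport genes of the thick ascending limb and collecting duct was higher. Markers of early proximal tubule were lower too, and those of thick ascending limb and collecting duct higher. The part of these marker differences was not tested. Many genes of sterol synthesis and of the clock were also higher, but most of those calls were lost under the other scaling given below. Of 9947 genes with at least 200 UMIs over both sections, 2643 (26.6%) were at least 1.5-fold higher and 469 (4.71%) at least 1.5-fold lower in the healthy_LS-FMD section. A 1.5-fold difference is the size used here to call a gene higher or lower, and for none of the 3112 genes so called did the counting interval include a ratio of 1. At 200 UMIs or more a 1.5-fold difference exceeds counting error, so this follows from the minimum and is no support for the calls. At 2-fold, 684 genes were higher and 183 lower.

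The split between higher and lower genes depended on the scaling. The median log2 fold (healthy_LS-FMD over healthy) over all genes was 0.32. When the sections were scaled by the median ratio over genes in place of the total, 948 genes were higher and 1169 lower. Each list median below is to be read against 0.32, and list counts against 26.6 and 4.71%. The central 90% of genes lay between log2 folds of -0.56 and 1.11.

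**Figure D1:**
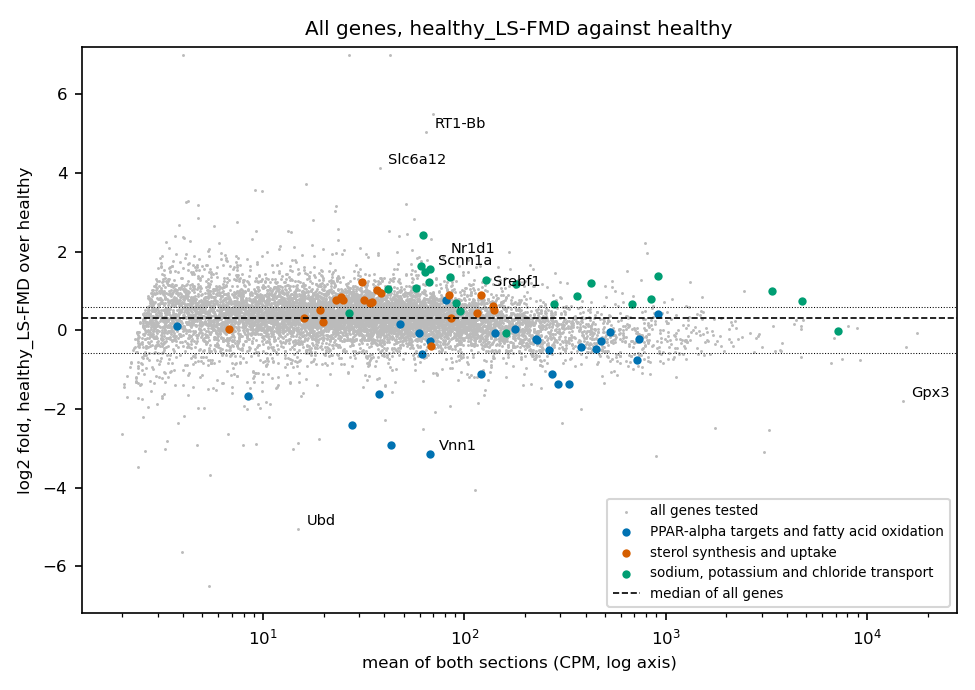
The log2 fold of healthy_LS-FMD over healthy (vertical axis) is plotted against the mean level of both sections in CPM (log axis) for the 9947 genes, with the lists of PPAR-alpha targets, sterol synthesis and sodium, potassium and chloride transport in colour, the all-gene median of 0.32 dashed and folds of 1.5 either way dotted. The transport genes lie mostly above the dashed line and the PPAR-alpha targets mostly below it, and 3 genes beyond the axis are drawn at its upper limit.

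The 2 sections differed in depth and in tissue. A total of 25330872 UMIs came from the healthy_LS-FMD section (median 8823 a spot, with 3406 genes) and 58568499 from the healthy section (median 19531 a spot, with 4552.5 genes). Thinned to 3000 UMIs a spot, which left out 42 healthy_LS-FMD and 3 healthy spots, the healthy_LS-FMD section had a median of 1674 genes and the healthy section 1524. The mitochondrial genome gave 5.17% of UMIs in the healthy_LS-FMD section against 4.88% in the healthy section, and haemoglobin gave 0.234 against 1.59%. Each section was clustered alone, and clusters were assigned to a zone by their highest-scoring marker list. Medullary spots made up 28.8% (27.0 to 30.6) of the healthy_LS-FMD section and 16.5% (15.2 to 18.0) of the healthy section. With coarser clusters (Leiden resolution 0.5 in place of 1) the shares were 28.8% in healthy_LS-FMD and 9.70% in healthy, so the healthy share depends on the clustering by more than its counting interval shows. For cortical spots the healthy_LS-FMD share was 34.8% and the healthy share 35.8%, and for outer stripe spots 32.4% in healthy_LS-FMD and 38.2% in healthy. With the coarser clusters cortex had 27.2% of spots in healthy_LS-FMD and 43.7% in healthy, and outer stripe 40.1% in healthy_LS-FMD and 40.8% in healthy. The cluster led by haemoglobin genes held 3.97% of spots in healthy_LS-FMD and 5.09% in healthy (146 spots), and stayed out of the zones. Another 124 spots of the healthy section (4.33%) also scored highest for red blood cells and were left out with them, but their leading genes were Ccl21, Myh11, Ighm and Igkc with no haemoglobin gene, so this cluster is not named. The healthy section had a region of 178 spots, assigned to outer stripe, that was led by Serpine2, Cxcl10, Slpi and Mgp, genes of matrix and inflammation.

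The zones did not hold matching clusters in the 2 sections. In the healthy_LS-FMD section, 2 clusters of 195 and 379 spots scored highest for inner medulla. No cluster of the healthy section did, but a cluster of 119 spots that scored highest for thick ascending limb shared 7 of its 10 leading genes with them, among them Spp1, Slc4a11 and Plet1, and is therefore not named here. Clusters scored as principal cell lay in the medulla of both sections, with 172 spots in healthy_LS-FMD and 186 and 26 in healthy, the smallest of them led by intercalated cell genes such as Atp6v1g3. A further 83 spots of the healthy_LS-FMD section, led by Slc4a1, Aqp3 and Fxyd4 among others, scored highest for proximal tubule S3 and so lay in its outer stripe, whereas no such cluster lay in the healthy outer stripe. A cluster of 143 spots led by Slc12a1 and Cldn16 lay in the healthy medulla, and no healthy_LS-FMD cluster scored highest for thick ascending limb. Cortical clusters differed as well. Those scored as podocyte held 42 spots in healthy_LS-FMD and 143 in healthy. Those scored as distal convoluted and connecting tubule held 336, 61 and 113 spots in healthy_LS-FMD and 136 and 280 in healthy. Values within each zone therefore compare different mixtures. For salt and water genes, outer stripe and medullary values are also given with the 83 spots counted as medulla and with the coarser clusters. These alternatives were chosen after seeing the data, and none is given for cortical values. Because these zones were drawn from the same counts, values within a zone describe the comparison and do not test it.

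**Figure D2:**
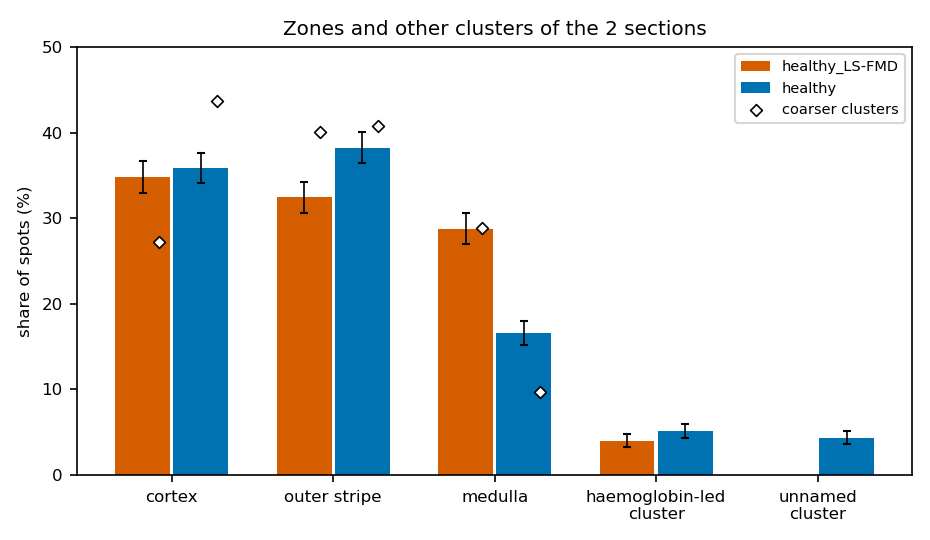
Share of spots (%) in each zone and in the clusters outside the zones, for the healthy_LS-FMD and healthy sections, with bars for the share, error bars for the exact 95% binomial interval, which covers counting error only, and diamonds for the zone shares with coarser clusters. Medulla had 28.8% of spots in the healthy_LS-FMD section, against 16.5% in the healthy section (9.70% with coarser clusters), the haemoglobin-led cluster had 3.97% in healthy_LS-FMD against 5.09% in healthy, and the unnamed cluster (4.33%) is of the healthy section.

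Markers of podocytes, proximal tubule, thick ascending limb and collecting duct were present in both sections, as the label kidney requires, but in different proportions. All 5 red blood cell genes tested were lower (median log2 fold -2.55), with a summed level of 1519 CPM in the healthy_LS-FMD section and 8818 CPM in the healthy section. Of 12 markers of proximal tubule S1 and S2, the early segments that reabsorb glucose and amino acids, 8 were lower and none higher (median -0.82, range -1.83 to -0.12). All 7 principal cell markers (median 1.22) and 5 of 7 intercalated cell markers (0.92) of the collecting duct were higher, as were 4 of 7 of the thick ascending limb (0.79). S3 markers were near parity, with 1 of 6 lower and a median of -0.06. Fewer cells of a type and less RNA per cell cannot be told apart in such sums, and these shifts move with the gene lists described next.

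PPAR-alpha targets come first. Vnn1 (ENSRNOG00000016219), the pantetheinase vanin and a classic PPAR-alpha target of liver, stood at 13.7 CPM in the healthy_LS-FMD section, against 122 CPM in the healthy section, and at 121 CPM in the PAN_LS-FMD section and 59.8 CPM in the PAN section. It was 8.86 times lower (7.96 to 9.89) and lowest of the 4 in the healthy_LS-FMD section, with log2 folds against healthy of -3.24 in cortex, -3.29 in outer stripe and -2.70 in medulla. Cyp4a1, a fatty acid omega-hydroxylase induced through PPAR-alpha, stood at 8.72 CPM in the healthy_LS-FMD section, against 46.7 CPM in the healthy section, and at 72.7 CPM in the PAN_LS-FMD section and 48.3 CPM in the PAN section. Angptl4, a secreted inhibitor of lipoprotein lipase that fasting induces, had 3.99 CPM in healthy_LS-FMD against 12.8 CPM in healthy, 3.21 times lower (2.60 to 3.99), while the PAN section reached 57.3 CPM. These 3 genes lay below each of the 3 other sections by at least 1.5-fold.

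Enzymes further down the oxidation pathway were lower by smaller factors. Ehhadh, the bifunctional enzyme of peroxisomal beta-oxidation, stood at 18.6 CPM in the healthy_LS-FMD section, against 56.9 CPM in the healthy section (3.06 times lower, interval 2.78 to 3.38), though the PAN section was lower still at 12.8 CPM. Acaa2, the mitochondrial thiolase of the last oxidation step, stood at 184 CPM in the healthy_LS-FMD section, against 479 CPM in the healthy section (2.60 times lower, interval 2.52 to 2.68), and here the healthy section was the one that stood apart, since the PAN_LS-FMD section had 255 CPM. Eci1, an isomerase for unsaturated fatty acids, stood at 162 CPM in healthy_LS-FMD against 421 CPM in healthy. Decr1, a reductase for the same substrates, stood at 171 CPM in healthy_LS-FMD against 372 CPM in healthy. Acot1, an acyl-CoA thioesterase, stood at 77.1 CPM in healthy_LS-FMD against 165 CPM in healthy. These 3 were also lower in each zone. The entry step differed by less than 1.5-fold. Cpt1a, which couples fatty acids to carnitine, had 179.5 CPM in healthy_LS-FMD against 177 CPM in healthy (log2 fold 0.02). Bdh1, which interconverts acetoacetate and beta-hydroxybutyrate, went the other way. It had 102 CPM in the healthy_LS-FMD section, against 60.4 CPM in the healthy section, and was 1.69-fold higher (1.61 to 1.78). That call was lost under scaling by the median ratio. Oxct1, the rate-limiting enzyme of ketone body use, had 1052 CPM in healthy_LS-FMD against 789.8 CPM in healthy, a log2 fold of 0.41 that is close to the all-gene median.

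Of the 36 genes in the list of PPAR-alpha targets, fatty acid oxidation and ketone bodies, 27 had enough UMIs. Of these 11 were lower and 1 was higher (median log2 fold -0.42, against 0.32 over all genes). Under scaling by the median ratio 16 were lower and none higher, with a median of -0.74. The medians within zones were -0.52 in cortex, -0.30 in outer stripe and -0.59 in medulla, against all-gene medians of 0.28, 0.24 and 0.39. Pdk4, a switch of fuel choice that fasting induces, had 1 UMI in each section and could not be read. Proximal tubule S1 and S2 markers, with which these genes share their main site, were themselves lower, by a median of -0.82 over all spots, -0.75 in cortex and -0.69 in outer stripe. Over all spots Vnn1 and Cyp4a1 lay below the lowest of those 12 markers (Slc7a7, -1.83, but 0.11 in medullary spots). Angptl4, Ehhadh, Acaa2, Eci1, Decr1 and Acot1 lay within the range of the markers. The part of the tubule marker difference in this list was not tested.

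The promoter of Eci1 is shown as that of a lower gene of this list with a match to the nuclear receptor half-site AGGTCA, the unit of which PPAR-alpha sites are built. The 250 bases before its start (GRCr8, chr10:13961000-13961249, plus strand) are shown with the match, which reads TGACCT on this strand, in capitals.
Eci1: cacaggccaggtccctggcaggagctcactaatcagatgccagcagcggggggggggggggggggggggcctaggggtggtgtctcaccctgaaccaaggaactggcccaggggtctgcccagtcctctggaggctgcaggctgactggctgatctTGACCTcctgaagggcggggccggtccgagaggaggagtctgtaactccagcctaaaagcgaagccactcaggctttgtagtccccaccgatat
Searched on both strands from 250 bases before to 50 after the start, AGGTCA occurred in 7 of the 28 promoters of the list that the table held (25.0%), and in 15.7% of all 27457 promoters. A match of these letters is a description and not a binding site.

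Genes of glucose production were lower along most of the path. G6pc, glucose-6-phosphatase, the last step, stood at 119 CPM in the healthy_LS-FMD section, against 307 CPM in the healthy section, and at 499 CPM in the PAN_LS-FMD section and 221 CPM in the PAN section, so that the healthy_LS-FMD section was the lowest of the 4 and 2.57 times lower (2.47 to 2.67) than the healthy section. Fbp1, fructose-bisphosphatase, stood at 527 CPM in the healthy_LS-FMD section, against 1141 CPM in the healthy section (2.17 times lower, interval 2.13 to 2.21). Pck1, PEP carboxykinase, the enzyme that controls entry, stood at 463 CPM in the healthy_LS-FMD section, against 916 CPM in the healthy section (1.98 times lower, interval 1.94 to 2.02), while the PAN section had 347 CPM. G6pc and Fbp1 were lower in each zone, while Pck1 had log2 folds of -1.03 in cortex, -0.49 in outer stripe and -2.95 in medulla, and 0.06 in outer stripe with the coarser clusters. Slc2a2, the basolateral glucose exit GLUT2 of the proximal tubule, stood at 19.3 CPM in healthy_LS-FMD against 46.7 CPM in healthy. Pc, pyruvate carboxylase, was short of a 1.5-fold difference (326 CPM in healthy_LS-FMD against 437 CPM in healthy, log2 fold -0.42). Of the 10 genes of this list 5 were lower and 1 higher, with a median of -0.58, which was -0.77 in cortex, -0.30 in outer stripe and -1.39 in medulla. The exception was Got1, the cytosolic aspartate aminotransferase, at 255 CPM in the healthy_LS-FMD section, against 108 CPM in the healthy section, higher in each zone. Proximal tubule S1 and S2 markers had medians of -0.82 over all spots, -0.75 in cortex and -0.69 in outer stripe. The lowest gene of the gluconeogenesis list (-1.36) lay above the lowest of those markers (-1.83). The part of the marker difference in this list was not tested.

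Part of the glycolytic list was higher. Of 13 tested, 7 were higher and none lower, and the median was 0.59 (0.44 in cortex, 0.44 in outer stripe and 0.85 in medulla). Pfkfb3, which makes the activator of phosphofructokinase, stood at 25.3 CPM in the healthy_LS-FMD section, against 9.12 CPM in the healthy section (2.77-fold higher, interval 2.47 to 3.11). Slc2a1, the glucose transporter GLUT1 of distal segments, stood at 116 CPM in the healthy_LS-FMD section, against 57.6 CPM in the healthy section. Pfkp, a phosphofructokinase, was 4.76-fold higher (3.53 to 6.48) on low counts (138 UMIs in healthy_LS-FMD and 67 in healthy). Gapdh was at 375 CPM in healthy_LS-FMD against 479.9 CPM in healthy (log2 fold -0.36). Under scaling by the median ratio 5 were higher and 1 was lower. Medullary spots, which made up more of the healthy_LS-FMD section, had the largest median, and their part in these counts was not tested.

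Sterol genes were mostly higher. Cyp51, lanosterol demethylase, stood at 49.4 CPM in the healthy_LS-FMD section, against 24.3 CPM in the healthy section (2.03-fold higher, interval 1.88 to 2.20). Msmo1, a sterol methyl oxidase further down the pathway, stood at 109 CPM in healthy_LS-FMD against 59.0 CPM in healthy. Idi1, isopentenyl diphosphate isomerase, stood at 29.1 CPM in healthy_LS-FMD against 17.0 CPM in healthy. These 3 were at least 1.5-fold above all 3 other sections, as were Hmgcs1, the cytosolic HMG-CoA synthase (43.4 CPM in healthy_LS-FMD against 26.2 CPM in healthy), and Acat2, the cytosolic acetoacetyl-CoA thiolase (31.3 CPM in healthy_LS-FMD against 17.6 CPM in healthy). Srebf2, the gene of the transcription factor SREBP-2 that drives the pathway, stood at 157 CPM in healthy_LS-FMD against 84.0 CPM in healthy. Insig1, which holds SREBP in the endoplasmic reticulum and is itself a target, was at 17.6 CPM in healthy_LS-FMD against 14.2 CPM in healthy, a log2 fold of 0.30 beside the all-gene median of 0.32. Sc5d, a late enzyme, was at 59.0 CPM in healthy_LS-FMD against 77.9 CPM in healthy (-0.40).

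Altogether 12 of 20 sterol genes tested were higher and none lower, with a median of 0.71 against 0.32 over all genes. The medians by zone were 0.64 in cortex, 0.28 in outer stripe and 1.06 in medulla, so that in the outer stripe, where 3 of 20 genes were higher, the list lay close to the all-gene median of 0.24. Under the scaling by the median ratio, 3 of 20 were higher and 1 was lower. The summed level of the list was 1318 CPM in the healthy_LS-FMD section and 876 CPM in the healthy section, beside 888 CPM in the PAN_LS-FMD section and 879 CPM in the PAN section.

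Promoters of 3 higher sterol genes are shown because they carry the CCAAT box, the site of NF-Y, the known partner of SREBP. Each is the 250 bases before the RefSeq start (GRCr8, plus strand), with matches in capitals, which read CCAAT in Msmo1 and ATTGG where the box lies on the other strand. Hmgcs1 is at chr2:53382054-53382303, Msmo1 at chr16:29746863-29747112 and Srebf2 at chr7:115543057-115543306.
Hmgcs1: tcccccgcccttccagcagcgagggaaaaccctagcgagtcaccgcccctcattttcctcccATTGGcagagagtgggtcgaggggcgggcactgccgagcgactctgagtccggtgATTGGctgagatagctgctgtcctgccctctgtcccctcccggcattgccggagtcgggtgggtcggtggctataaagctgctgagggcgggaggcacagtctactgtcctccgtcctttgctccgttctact
Msmo1: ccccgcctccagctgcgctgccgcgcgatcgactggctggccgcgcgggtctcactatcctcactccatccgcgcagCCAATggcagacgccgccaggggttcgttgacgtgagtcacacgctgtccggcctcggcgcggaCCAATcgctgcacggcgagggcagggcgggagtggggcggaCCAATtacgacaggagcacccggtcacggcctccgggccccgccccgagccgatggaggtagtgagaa
Srebf2: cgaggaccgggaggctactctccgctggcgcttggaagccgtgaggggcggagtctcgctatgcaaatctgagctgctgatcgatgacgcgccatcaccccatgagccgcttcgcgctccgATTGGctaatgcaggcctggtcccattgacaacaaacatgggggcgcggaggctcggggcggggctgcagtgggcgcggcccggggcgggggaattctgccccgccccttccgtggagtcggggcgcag
Hmgcs1 held 2 matches, Msmo1 3 and Srebf2 1. Over the window from 250 bases before to 50 after the start, both strands searched, CCAAT occurred in 12 of the 15 sterol promoters that the table held (80.0%), in 10 of 28 of the PPAR-alpha list (35.7%) and in 37.7% of all 27457 promoters. The sterol regulatory element written as TCACNCCAC occurred in none of those 15 and in 1.13% of all, which says only that these letters are not in this window.

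**Figure D3:**
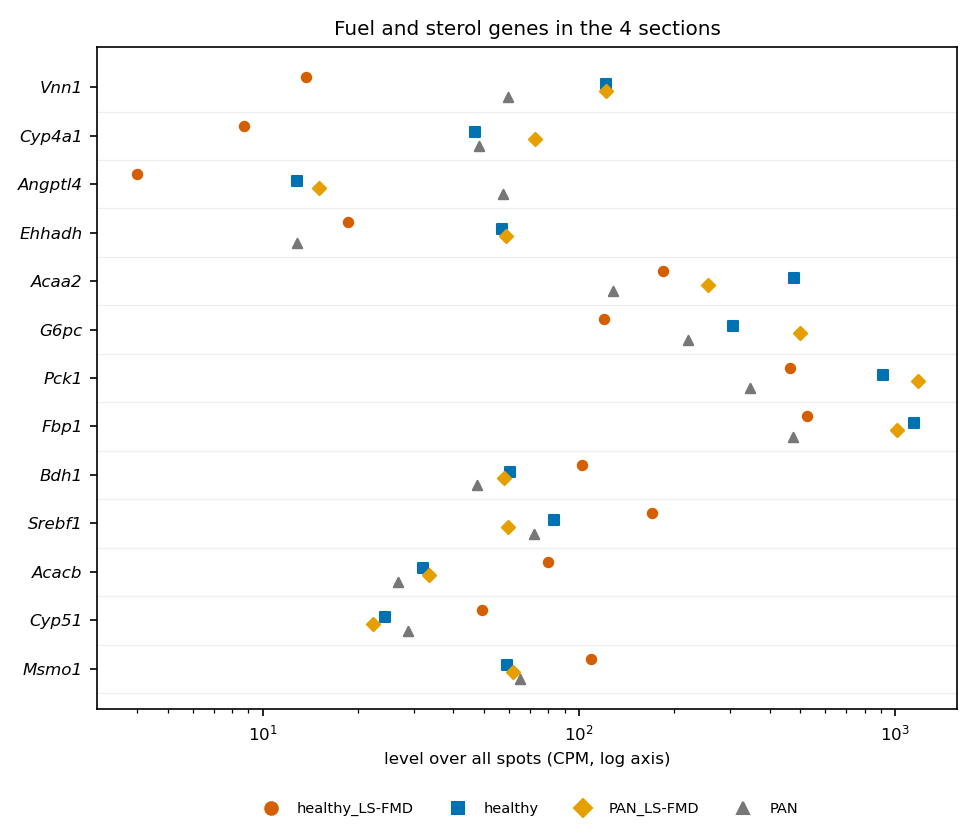
Levels of 13 fuel and sterol genes in CPM (log axis) in the healthy_LS-FMD, healthy, PAN_LS-FMD and PAN sections, with 1 symbol for each section and no error bars, since there was 1 section a group. The healthy_LS-FMD section is leftmost of the 4 for Vnn1, Cyp4a1, Angptl4 and G6pc, and rightmost for Bdh1, Srebf1, Acacb, Cyp51 and Msmo1.

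The fatty acid synthesis list lay close to all genes, though some of its members were called higher. Srebf1, the gene of SREBP-1, which insulin induces, stood at 169.8 CPM in the healthy_LS-FMD section, against 83.5 CPM in the healthy section, and at 59.5 CPM in the PAN_LS-FMD section and 72.3 CPM in the PAN section, 2.03-fold higher (1.95 to 2.12) than in the healthy section and higher in each zone. Acacb, the mitochondrial acetyl-CoA carboxylase whose product blocks fatty acid entry into mitochondria, stood at 79.6 CPM in the healthy_LS-FMD section, against 32.0 CPM in the healthy section (2.48-fold higher, interval 2.33 to 2.65). Fasn, fatty acid synthase, had 102.6 CPM in healthy_LS-FMD against 63.0 CPM in healthy. Mlxipl, the carbohydrate-sensing factor ChREBP, had 21.7 CPM in healthy_LS-FMD against 13.4 CPM in healthy. The enzymes that supply the pathway were not called. Acly, ATP citrate lyase, had 94.5 CPM in healthy_LS-FMD against 74.1 CPM in healthy (log2 fold 0.35). Me1, malic enzyme, had 159 CPM in healthy_LS-FMD against 209 CPM in healthy (-0.39). Thus 4 of 13 genes tested were higher and none lower, and the median was 0.35, beside 0.32 over all genes. Under scaling by the median ratio 2 were higher and 2 lower, with a median of 0.03.

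Hormone-responsive genes gave a mixed picture. Fkbp5, a co-chaperone and sensitive glucocorticoid target, stood at 71.5 CPM in the healthy_LS-FMD section, against 22.5 CPM in the healthy section (3.18-fold higher, interval 2.96 to 3.42), with 39.5 CPM in the PAN_LS-FMD section and 49.7 CPM in the PAN section, so that the healthy section was the lowest of the 4. Sgk1, a kinase that glucocorticoid and mineralocorticoid hormones induce, went the other way at 184 CPM in the healthy_LS-FMD section, against 328 CPM in the healthy section (1.78 times lower, interval 1.72 to 1.84). Over the 14 glucocorticoid-responsive genes tested, 3 were higher and 3 lower (median 0.10). Among 20 genes of the insulin, growth hormone and IGF axis, 7 were higher and 1 lower (median 0.05). Irs2, the insulin receptor substrate that insulin represses in liver, was at 36.2 CPM in healthy_LS-FMD against 22.6 CPM in healthy. Insr, the insulin receptor, was at 24.1 CPM in healthy_LS-FMD against 14.7 CPM in healthy. Igf1, the growth factor that growth hormone induces, was at 10.0 CPM in healthy_LS-FMD against 5.24 CPM in healthy. These 3 were called higher, though over the list scaling by the median ratio left 3 higher and 4 lower. Igfbp1, an IGF-binding protein that fasting induces in liver, was at 86.3 CPM in healthy_LS-FMD against 54.4 CPM in healthy. Cish, a target of growth hormone signalling, was at 35.3 CPM in healthy_LS-FMD against 36.2 CPM in healthy (log2 fold -0.03). The low member, Igf2r, clears IGF2 and had 118 CPM in healthy_LS-FMD against 194 CPM in healthy.

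Clock genes were higher in 7 of 14 cases and lower in none, with a median of 0.62 (0.59 in cortex, 0.57 in outer stripe and 0.75 in medulla). Under scaling by the median ratio 2 were higher and 1 was lower, with a median of 0.30. Nr1d1 (ENSRNOG00000009329), the haem-binding repressor REV-ERB-alpha, stood at 123 CPM in the healthy_LS-FMD section, against 33.6 CPM in the healthy section, and at 49.1 CPM in the PAN_LS-FMD section and 74.0 CPM in the PAN section. It was 3.64-fold higher (3.44 to 3.86) than in the healthy section, the most of the 14 genes tested. Its paralogue Nr1d2 had 91.1 CPM in healthy_LS-FMD against 48.4 CPM in healthy. Dbp, an output factor of the clock, had 109 CPM in healthy_LS-FMD against 58.2 CPM in healthy. Cry2, a repressor of the core loop, had 42.0 CPM in healthy_LS-FMD against 22.7 CPM in healthy. All 3 were called higher. Genes of opposite phase were mixed. Npas2, a partner of BMAL1, was higher too (21.4 CPM in healthy_LS-FMD against 12.7 CPM in healthy). Arntl, BMAL1 itself, had 29.1 CPM in healthy_LS-FMD against 23.7 CPM in healthy, a log2 fold of 0.29. Nfil3, which opposes Dbp, had 10.5 CPM in healthy_LS-FMD against 13.9 CPM in healthy (-0.41). The hour at which each kidney was taken was not given in the sources used here. Per1 had 1 UMI in the healthy_LS-FMD section and 6 in the healthy section, and could not be read.

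Salt handling differed at several points of the nephron. The angiotensin system was mixed. Agt, angiotensinogen, stood at 107 CPM in healthy_LS-FMD against 104 CPM in healthy (log2 fold 0.03). Agtr1a, the main angiotensin receptor, stood at 38.0 CPM in healthy_LS-FMD against 27.4 CPM in healthy (0.47). Of 9 genes of this system tested 3 were higher and 2 lower (median 0.12). The calls differed by zone, with 5 higher and none lower in cortex (median 0.76). In outer stripe 3 were higher and 1 lower (0.24), and in medulla 3 were higher and 5 lower (-1.15).

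Along the thick ascending limb, Slc12a1, the furosemide-sensitive sodium-potassium-chloride cotransporter, stood at 1326 CPM in the healthy_LS-FMD section, against 509.6 CPM in the healthy section, and at 422 CPM in the PAN_LS-FMD section and 506 CPM in the PAN section, 2.60-fold higher (2.56 to 2.64) than in the healthy section. Kcnj1, the potassium channel ROMK that recycles potassium for it, had 93.6 CPM in healthy_LS-FMD against 33.5 CPM in healthy (2.80-fold higher, interval 2.63 to 2.97). Stk39, the kinase SPAK that activates the cotransporters, had 91.7 CPM in healthy_LS-FMD against 29.6 CPM in healthy (3.10-fold higher, interval 2.91 to 3.30). Umod, uromodulin, the most abundant protein of this segment, did not share the difference, at 7121 CPM in healthy_LS-FMD against 7253 CPM in healthy (log2 fold -0.03). In the distal convoluted tubule, Slc12a3, the thiazide-sensitive cotransporter, had 590.1 CPM in healthy_LS-FMD against 257 CPM in healthy, beside 455 CPM in the PAN_LS-FMD section and 126 CPM in the PAN section. Its log2 folds were 1.41 in cortex, 0.76 in outer stripe and 0.04 in medulla (outer stripe 1.21 and medulla 0.37 with the coarser clusters). Wnk4, a kinase that controls the cotransporter, had 122 CPM in healthy_LS-FMD against 47.3 CPM in healthy.

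In the collecting duct the 3 subunits of the epithelial sodium channel were all higher. Scnn1a had 100.4 CPM in the healthy_LS-FMD section, against 33.9 CPM in the healthy section (2.96-fold higher, interval 2.79 to 3.14). Scnn1b had 93.5 CPM in healthy_LS-FMD against 40.0 CPM in healthy and Scnn1g 55.9 CPM in healthy_LS-FMD against 27.2 CPM in healthy. In the order Scnn1a, Scnn1b and Scnn1g, their log2 folds were 1.99, 1.46 and 1.33 in cortex, 1.44, 1.37 and 1.26 in outer stripe, and 0.49, 0.23 and 0.05 in medulla. With the 83 spots led by Slc4a1, Aqp3 and Fxyd4 counted as medulla, the outer stripe values were 1.26, 0.92 and 0.64, and the medullary ones 0.58, 0.43 and 0.24. With the coarser clusters they were 1.44, 1.43 and 1.16 in outer stripe, and 0.38, -0.18 and -0.44 in medulla, so that the size in outer stripe and the sign in medulla depended on how the zones were drawn. Hsd11b2, the enzyme that keeps cortisol and corticosterone off the mineralocorticoid receptor there, had 468 CPM in healthy_LS-FMD against 255 CPM in healthy. Atp1b1, the beta subunit of the sodium-potassium pump of all segments, stood at 4478 CPM in healthy_LS-FMD against 2249 CPM in healthy.

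Of 23 genes of sodium, potassium and chloride transport tested, 19 were higher and none lower (median 1.04 against 0.32 over all genes), and 13 stayed at least 1.5-fold higher, with none lower, under scaling by the median ratio. The median was 1.05 in cortex, 0.86 in outer stripe and 0.69 in medulla. With the 83 spots counted as medulla it was 0.64 in outer stripe and 0.71 in medulla, and with the coarser clusters 0.88 in outer stripe and 0.55 in medulla, all above the all-gene medians of 0.22 to 0.36 under those settings. With cortex and outer stripe weighted equally and all other spots left out, a setting chosen after seeing the data, the median was 0.98, or 0.97 with the 83 spots also left out, but the healthy section then also lost its clusters led by Slc12a1, Aqp3 and Atp6v1g3, which the zones put in medulla. Collecting duct, thick ascending limb and distal convoluted and connecting tubule markers, some of them members of this list, had medians of 0.79 to 1.22. The part of these markers in the result was not tested.

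Water and solute genes of the medulla followed. Aqp2, the vasopressin-regulated water channel of principal cells, stood at 949 CPM in the healthy_LS-FMD section, against 335 CPM in the healthy section, and at 397 CPM in the PAN_LS-FMD section and 264 CPM in the PAN section, 2.83-fold higher (2.78 to 2.88) than in the healthy section. Aqp4, a basolateral water channel of the same cells, had 39.3 CPM in healthy_LS-FMD against 7.97 CPM in healthy, and Aqp3, another, had 260.2 CPM in healthy_LS-FMD against 108 CPM in healthy. Aqp1, of proximal tubule and thin descending limb, had 3271 CPM in healthy_LS-FMD against 1637 CPM in healthy. Nfat5, the transcription factor that answers high tonicity, had 192 CPM in the healthy_LS-FMD section, against 77.3 CPM in the healthy section, and was higher in each zone. Slc6a12, the betaine transporter that it controls, had 72.0 CPM in healthy_LS-FMD against 4.11 CPM in healthy (17.5-fold higher, interval 15.3 to 20.1). Akr1b1, the aldose reductase that makes sorbitol under the same control, had 39.5 CPM in healthy_LS-FMD against 32.4 CPM in healthy (log2 fold 0.29). In all, 7 of 10 genes tested were higher and none lower (median 1.29), and the same counts held under scaling by the median ratio. The medians by zone were 0.92 in cortex, 1.2 in outer stripe and 1.39 in medulla. With the 83 spots of the healthy_LS-FMD section counted as medulla, the outer stripe median was 0.92 and the medullary one 1.27, and Aqp2 had 0.88 in outer stripe in place of 1.40. Aqp2, Aqp3 and Aqp4 are also principal cell markers, and Slc6a12 and Akr1b1 inner medulla markers. Principal cell markers had a median of 1.22, and inner medulla markers 1.45 over all spots and 2.37 in medulla. Scaling does not address such a difference in tissue, and its part in the result was not tested. Acid-base genes were higher in 7 of 14 cases and lower in 1 (median 0.63), with all-spot values as follows. Slc4a1, the anion exchanger of acid-secreting cells that red cells share, had 329 CPM in healthy_LS-FMD against 112 CPM in healthy, while the red cell markers were lower. Rhcg, an ammonia channel, had 217 CPM in healthy_LS-FMD against 102.7 CPM in healthy.

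**Figure D4:**
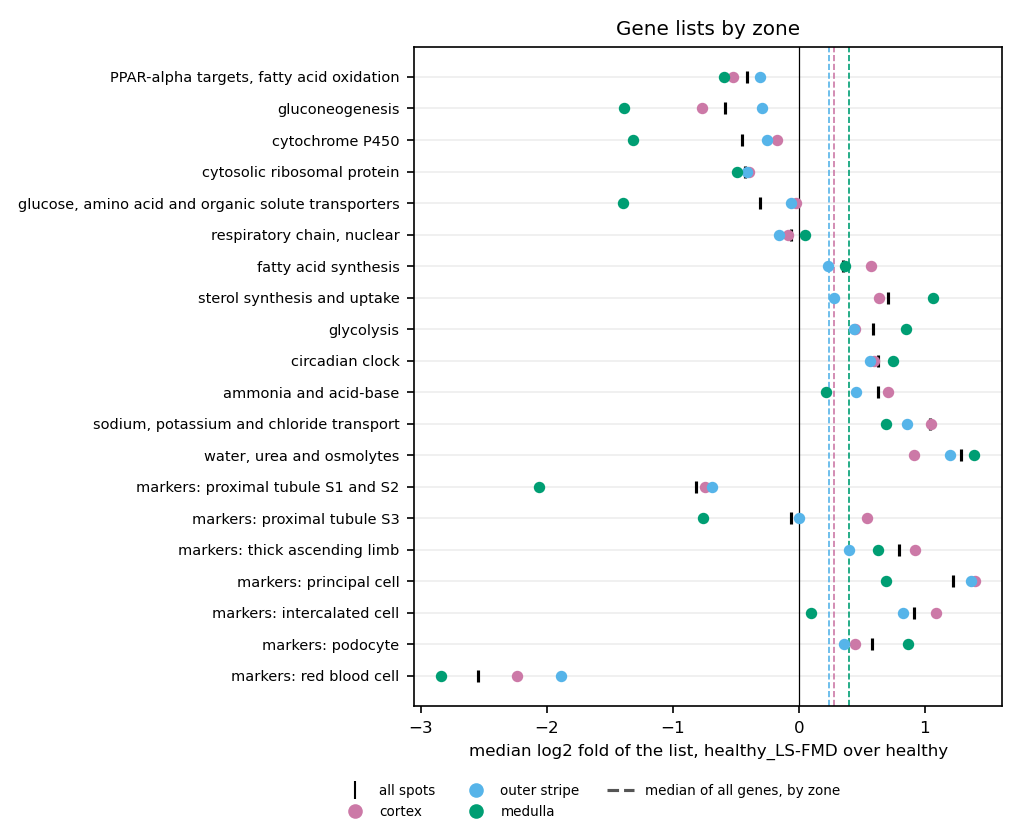
Median log2 fold of healthy_LS-FMD over healthy for 20 gene lists over all spots (black ticks) and in cortex, outer stripe and medulla (points), with the median of all genes in each zone as dashed lines (0.28, 0.24 and 0.39). Lists of sodium and water transport lie right of the dashed lines in every zone as drawn, though their outer stripe values fall to 0.64 and 0.92 with the 83 spots led by collecting duct genes counted as medulla, and PPAR-alpha targets and gluconeogenesis left of them, and red blood cell markers are farthest left, at -2.55 over all spots.

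Proximal tubule transport was lower for some solutes and not called for others. Slc5a2, the low-affinity glucose transporter SGLT2, stood at 64.9 CPM in the healthy_LS-FMD section, against 188 CPM in the healthy section (2.89 times lower, interval 2.74 to 3.04). Slc22a6, an organic anion transporter, stood at 279 CPM in healthy_LS-FMD against 704 CPM in healthy, and Slc22a8, another, at 178 CPM in healthy_LS-FMD against 472 CPM in healthy. Slc34a3, a sodium-phosphate cotransporter, was 4.87 times lower (4.36 to 5.45), at 13.7 CPM in healthy_LS-FMD against 66.9 CPM in healthy. The following differed by less than 1.5-fold. Slc34a1, the main one, was at 2567 CPM in healthy_LS-FMD against 3451 CPM in healthy (log2 fold -0.43). Lrp2, megalin, the endocytic receptor, was at 1054 CPM in healthy_LS-FMD against 1149 CPM in healthy (-0.12). Slc22a2, an organic cation transporter, was at 1028 CPM in healthy_LS-FMD against 811 CPM in healthy (0.34). Of 25 solute transporters tested 9 were lower and none higher (median -0.31), and their median was 0.00 with cortex and outer stripe weighted equally, against 0.26 over all genes. Gpx3, the secreted glutathione peroxidase made in proximal tubule, stood at 6744 CPM in the healthy_LS-FMD section, against 23509.9 CPM in the healthy section. Gpx1, the cytosolic glutathione peroxidase, stood at 688 CPM in the healthy_LS-FMD section, against 1575 CPM in the healthy section. Both are selenoproteins, and both were lowest in the healthy_LS-FMD section. Over the antioxidant list 3 of 23 were lower and 1 higher (median 0.10).

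Cytosolic ribosomal protein genes were lower in 24 of 71 cases and higher in none (median -0.42, and -0.40, -0.42 and -0.49 in cortex, outer stripe and medulla), and 50 were lower under scaling by the median ratio. Their summed share of UMIs was 4.02% in the healthy_LS-FMD section and 5.43% in the healthy section, while PAN_LS-FMD had 4.91% and PAN 6.38%. Many of these genes have near-identical copies among which the counting can split reads. Nuclear genes of the respiratory chain (1 of 78 higher, 3 lower, median -0.06), mitochondrial ribosomal proteins (2 of 70 higher, 2 lower, -0.02) and proteasome subunits (none of 33 higher, 1 lower, 0.04) lay below the all-gene median of 0.32.

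Podocyte and injury genes were examined because the other arm of the series concerns podocyte damage. Nphs1, nephrin, the slit diaphragm protein, stood at 28.7 CPM in the healthy_LS-FMD section, against 16.5 CPM in the healthy section, and at 33.3 CPM in the PAN_LS-FMD section and 9.35 CPM in the PAN section, 1.74-fold higher (1.58 to 1.91) than in the healthy section. Wt1, the master transcription factor of podocytes, had 13.3 CPM in healthy_LS-FMD against 8.50 CPM in healthy. Podxl, the charged coat protein podocalyxin, had 90.6 CPM in healthy_LS-FMD against 59.4 CPM in healthy. These 3 were called higher. Ptpro, a phosphatase of podocytes, was not, at 37.2 CPM in healthy_LS-FMD against 30.8 CPM in healthy (log2 fold 0.27). Spots with an Nphs1 UMI made up 16.4% of the healthy_LS-FMD section and 18.8% of the healthy section, and after thinning 8.19% of healthy_LS-FMD and 4.54% of healthy spots, so no order is read from these shares. Of 15 podocyte markers 7 were higher and none lower (2 under scaling by the median ratio, median 0.58), and in cortex, their own zone, the median was 0.44 and 6 were higher. Clusters scored as podocyte held 42 spots in healthy_LS-FMD and 143 in healthy.

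The best-known markers of tubular injury were far below the PAN section in both compared sections. Havcr1, KIM-1, the standard marker of injured proximal tubule, stood at 5.49 CPM in the healthy_LS-FMD section, against 8.43 CPM in the healthy section, and 219 CPM in the PAN section. Lcn2, a secreted marker of distal injury, stood at 15.9 CPM in healthy_LS-FMD against 9.63 CPM in healthy, and 222 CPM in the PAN section. Spp1, osteopontin, was higher, at 1292 CPM in the healthy_LS-FMD section, against 332 CPM in the healthy section (3.89-fold higher, interval 3.82 to 3.96), beside 17165 CPM in the PAN section, with log2 folds of 1.14 in cortex, 1.17 in outer stripe and 2.13 in medulla. It was among the leading genes of the 379-spot cluster of the healthy_LS-FMD section and of the 119-spot cluster of the healthy section described above. Of 15 injury genes tested 5 were higher and 2 lower (median 0.01). Of 10 nephron progenitor and developmental genes tested, 5 were higher (median 0.60, in cortex and outer stripe weighted equally 0.33), and 1 was lower. Jag1, a Notch ligand, had 48.6 CPM in healthy_LS-FMD against 23.7 CPM in healthy. Pax8, a transcription factor of nephron formation, had 172 CPM in healthy_LS-FMD against 103.4 CPM in healthy. Cited1, a marker of the progenitor cap, had 4.46 CPM in healthy_LS-FMD against 7.63 CPM in healthy and was the lower one.

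The largest differences lay outside these pathways. Genes were named where the fold was at least 1.5 over all spots and in every zone in which they were measured, which held for 1068 higher (10.7%) and 234 lower genes (2.35%). Gh1, growth hormone, a product of the pituitary, had 1353 UMIs in the healthy_LS-FMD section and none in the healthy section, 53.4 CPM and at least 1043-fold higher against a floor of 3 UMIs over the section. It was at 0.486 CPM in the PAN_LS-FMD section and 6.10 CPM in the PAN section. Its RNA was spread over 39.4% of spots (0% in the healthy section, where 0 of 2866 spots allows up to 0.105% by a floor of 3 spots, or 0.129% by the exact interval), with at most 5 UMIs in a spot. Scgb1a1, the secretoglobin of airway club cells, had 203 UMIs in the healthy_LS-FMD section and none in the healthy section, at least 156-fold higher. Prl, prolactin, another pituitary hormone, had 58 UMIs in the healthy_LS-FMD section and none in the healthy section. Sftpc, of lung surfactant, had 37 UMIs in healthy_LS-FMD and none in healthy. Pomc, a pituitary gene too, had 74.1 CPM in healthy_LS-FMD and 47.2 CPM in healthy (1877 UMIs in healthy_LS-FMD and 2766 in healthy). Summed over 7 pituitary genes the level was 132 CPM in healthy_LS-FMD and 48.1 CPM in healthy, and over 5 lung genes 10.5 CPM in healthy_LS-FMD and 0.512 CPM in healthy, with Sftpb at 0 in both. These other-organ genes were looked up after the values of Gh1 were seen, and the source of their RNA was not tested.

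Akr1c2, an aldo-keto reductase of steroid metabolism, had 2152 UMIs in the healthy_LS-FMD section and 7 in the healthy section, 711-fold higher by CPM (344 to 1770.1). It was seen in 44.0% of healthy_LS-FMD spots and 0.244% of healthy spots, and in PAN_LS-FMD and PAN in 0.0457 and 0.0734%. It was among the leading genes of a 248-spot outer stripe cluster of the healthy_LS-FMD section. RT1-Bb, a class II histocompatibility chain, had 125 CPM in the healthy_LS-FMD section, against 3.81 CPM in the healthy section, and 109.7 CPM in the PAN_LS-FMD section and 49.3 CPM in the PAN section. Dmrtc1c1, a gene of the DMRT-like family, had 136 CPM in the healthy_LS-FMD section, against 2.99 CPM in the healthy section, and 161 CPM in the PAN_LS-FMD section and 34.6 CPM in the PAN section. In both it was the healthy section that stood apart from all 3 others. The partner of RT1-Bb, RT1-Ba, the alpha chain of the same class II molecule, did not share the difference (98.9 CPM in healthy_LS-FMD against 79.7 CPM in healthy, log2 fold 0.31). Several of the others had their largest log2 fold in medulla. Slco4a1, an organic anion transporter, had 30.6 CPM in healthy_LS-FMD against 2.32 CPM in healthy, with log2 folds of 2.60 in cortex, 1.87 in outer stripe and 4.37 in medulla. Slc14a1, a urea transporter of vasa recta and red cells, had 18.1 CPM in healthy_LS-FMD against 1.55 CPM in healthy, and Slc4a11, a proton-coupled membrane transporter, 92.5 CPM in healthy_LS-FMD against 10.1 CPM in healthy. Slco4a1 and Slc6a12 were among the leading genes of the 195-spot inner medulla cluster of healthy_LS-FMD, and Slc14a1 and Slc4a11 of the 379-spot one. No healthy cluster scored highest for inner medulla, and the part of this tissue difference in the folds was not tested. The rest of the 12 were Slc6a12, described above, Matn1, a matrilin, Gucy2g, a guanylate cyclase, and Rn50_X_0744.2, which the files do not name further.

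Among the lowest genes, Ubd, the ubiquitin-like protein FAT10 that inflammatory cytokines induce, stood at 0.869 CPM in the healthy_LS-FMD section, against 29.1 CPM in the healthy section (33.5 times lower, interval 22.03 to 53.5), and at 26.1 CPM in the PAN_LS-FMD section and 219 CPM in the PAN section. It was seen in 0.810% of healthy_LS-FMD spots and 39.1% of healthy spots, and after thinning in 0.196% of healthy_LS-FMD and 8.03% of healthy spots. Igh-6, an immunoglobulin heavy chain entry, had no UMI in the healthy_LS-FMD section and 633 in the healthy section, at least 91.3 times lower, while the entry Ighm had 90.9 CPM in the healthy_LS-FMD section, against 25.3 CPM in the healthy section, in the opposite direction. Immunoglobulin and class II entries have near-identical copies and alleles among which the counting can split reads, so their folds are uncertain. Nwd2 had 4 UMIs in healthy_LS-FMD and 457 in healthy. Prima1, which anchors acetylcholinesterase, had 3.59 CPM in healthy_LS-FMD against 26.2 CPM in healthy. Both had their lowest level of the 4 in the healthy_LS-FMD section. Alas2, the first enzyme of haem synthesis in red cells (4.90 CPM in healthy_LS-FMD against 33.2 CPM in healthy), Ahsp, which stabilises alpha-globin, and Lgals5, a galectin of rat red cells, were lower with the red cell markers. Cd52, of lymphocytes, Hrg, a plasma glycoprotein (3.12 CPM in healthy_LS-FMD against 25.1 CPM in healthy), and Gal, the neuropeptide galanin (1.86 CPM in healthy_LS-FMD against 13.98 CPM in healthy), were at least 1.5-fold higher in the healthy section than in each of the 3 others.

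**Figure D5:**
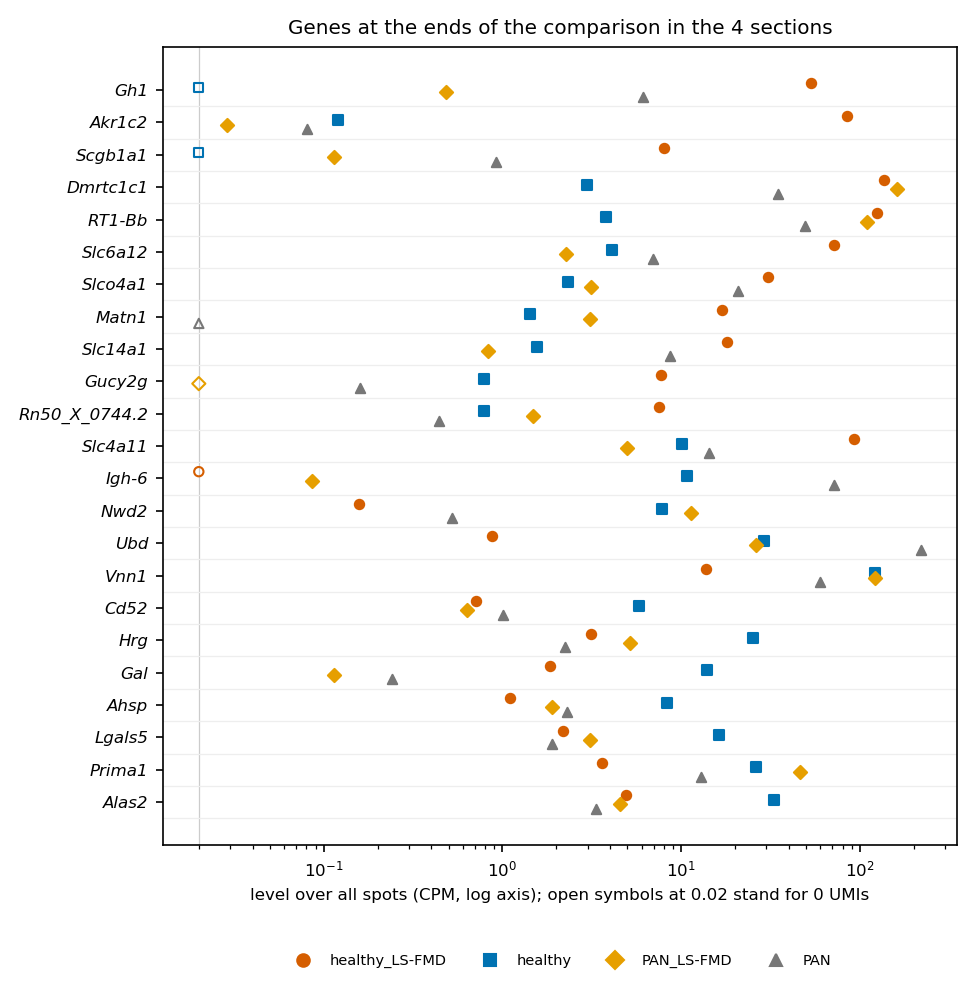
Levels in CPM (log axis) of the 12 highest and 11 of the 12 lowest named genes in the healthy_LS-FMD, healthy, PAN_LS-FMD and PAN sections, with open symbols at the left edge for 0 UMIs and no error bars, since there was 1 section a group. The healthy_LS-FMD section lies far from the other 3 for Gh1, Akr1c2 and Scgb1a1, and the healthy section for Dmrtc1c1, RT1-Bb, Cd52, Hrg and Lgals5.

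Set against all 3 other sections, 391 genes (3.93%) had a level in the healthy_LS-FMD section at least 1.5-fold above each, and 141 (1.42%) a level at least 1.5-fold below each. The healthy section was below each of the 3 others for 224 genes (2.25%) and above each for 55 (0.553%). Genes of the first kind included Nr1d1, Srebf1, Acacb, Cyp51, Slc12a1, Scnn1a and Aqp2, and of the second Vnn1, Cyp4a1, Angptl4, G6pc and Gpx3. Genes set apart by the healthy section included P3h3, a collagen prolyl hydroxylase (40.2 CPM in the healthy_LS-FMD section, against 6.74 CPM in the healthy section, and 34.8 CPM in the PAN_LS-FMD section and 126 CPM in the PAN section), Zmym6nb (12.9 CPM in healthy_LS-FMD against 1.91 CPM in healthy) and Fkbp5.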

How the data were processed

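Visium libraries of 4 rat kidney sections, 1 in each group, were used, and the report compares 2 of them. The deposited files hold UMI counts per gene and spot, which the authors produced with Space Ranger 1.2.1 (2.0.1 for the healthy section), per the file headers. The genome build, like the annotation, was not given in the sources used here. All 4 matrices list the same 32402 features, and 0 columns of other series were met. Spots with at least 500 UMIs were kept, UMIs were summed over spots and scaled to CPM, and genes with at least 200 UMIs over both sections were compared. Gene ratios have exact conditional Poisson 95% intervals and spot shares exact binomial ones (Clopper-Pearson), with a floor of 3 spots beside a share of 0, computed in Python 3.11.15 with numpy 2.4.6 and scipy 1.17.1. A gene was called at 1.5-fold, and for a section at 0 UMIs a floor of 3 UMIs over the section was used, which is 0.118 CPM in healthy_LS-FMD and 0.0512 CPM in healthy.

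For zones, each section was scaled to 10000 UMIs a spot and clustered with scanpy 1.11.5 (2000 variable genes, 30 principal components, 15 neighbours, Leiden resolution 1). Clusters were assigned to zones by marker lists, scored with a pseudocount of 10 CPM. Spots are not cells, and no doublet caller was run. The 2 compared sections share 1731 barcodes, which are positions of the slide. Within a zone a gene needed 50 UMIs over both sections. Genes were named by rule: the 12 highest and 12 lowest folds at 1.5-fold or more over all spots and in every zone measured, the 8 highest and 8 lowest apart from all 3 other sections in either group, up to 4 examples a list, and a set of fixed genes, without mitochondrial, ribosomal, haemoglobin, provisional and pseudogene entries. Some list members were named besides, as were the genes of other organs, after their values were seen. Some members are not reported here. Members and lists were chosen with earlier results of these data known. Alternatives were other scalings, other minimums, other weights of spots and zones, and single zones, also with other zone borders. With 1 section a group no model was fitted. The calculation was tested on simulated data.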

Additional observations from a re-analysis of the deposited data

Results flagged for a closer look

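The results below differed in direction between cortical and medullary spots of the same 2 sections, a difference that was not tested. The cortical and medullary zones each held different clusters in the 2 sections. The log2 folds are of healthy_LS-FMD over healthy. The list of the angiotensin system had a median of 0.76 in cortical spots and -1.15 in medullary spots. Slc7a12, an amino acid transporter, had 0.87 in cortical and -0.76 in medullary spots. Slco1a6, an organic anion transporter, had 0.80 in cortical and -0.73 in medullary spots. Cidec, a lipid droplet protein of adipocytes, had 0.71 in cortical and -1.36 in medullary spots. Igkc, the immunoglobulin kappa constant region, had 2.96 in cortical and -1.30 in medullary spots. Proximal tubule S1 and S2 markers had medians of -0.75 in cortical and -2.06 in medullary spots, and their part in these differences was not tested.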

How the results depend on the processing

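No paired analysis was possible because each group has 1 section and the sections have no replicates to pair, and for the same reason no replicate could be left out. The number of higher genes was 2643 as reported and 948 with scaling by the median ratio. It was 1695 over cortical spots, 1403 over outer stripe spots and 1708 with a gene minimum of 1000 UMIs. Under the other settings, apart from the redrawn outer stripes given below, it lay between 1926 and 3314. The number of lower genes was 469 as reported and 1169 with scaling by the median ratio. It was 307 over outer stripe spots, 712 over medullary spots and 294 with a gene minimum of 1000 UMIs. Otherwise, again apart from the redrawn outer stripes, it lay between 430 and 680. Fewer genes were tested in single zones and under the higher minimum. The all-gene median of 0.32 was 0 under scaling by the median ratio, which sets it so, and 0.22 to 0.38 otherwise. With cortex and outer stripe weighted equally, a setting chosen after seeing the data, 1979 genes were higher and 484 lower, with a median of 0.26. Over the outer stripe 1287 were higher and 302 lower with the collecting duct-led cluster counted as medulla, and 1301 higher and 297 lower with the coarser clusters of resolution 0.5, settings also chosen after seeing the data. Of 222 gene values, 12 genes changed sign in a setting, and the cause was not tested. Over medullary spots Calb1 had -0.048, Slc7a7 0.11, Nphs1 -0.25, Sds -0.41, Igkc -1.30 and Adipoq -0.50, over cortical spots C1r had -0.063, and with zones weighted equally at resolution 0.5 Adipoq had -0.038. With the collecting duct-led cluster counted as medulla, medullary values were -0.21 for Nphs1, -1.17 for Igkc and -0.099 for Adipoq. With the coarser clusters they were -0.11 for Calb1, 0.71 for Slc7a7, -0.14 for Nphs1, -0.57 for Sds, -0.18 for Scnn1b, -0.027 for Foxi1, -0.12 for Atp6v1b1, -1.76 for Igkc and -0.99 for Adipoq, and outer stripe values -0.17 for Mrps6 and 0.057 for Pck1. Of 52 list medians 4 changed sign. Over medullary spots the distal convoluted and connecting tubule markers had -0.048, B and plasma cell markers -0.34 and adipocyte markers -0.50, and adipocyte markers had -0.038 with zones weighted equally at resolution 0.5. Medullary medians with the cluster counted as medulla were -0.24 for B and plasma cell and -0.099 for adipocyte markers, and with the coarser clusters -0.62 and -0.99, and -0.12 for intercalated cell markers. Spot minimums of 0 and of 2000 UMIs moved none of the 222 gene values. The depth of the healthy_LS-FMD section limits genes near its floor of 0.118 CPM.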

Other observations

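Enzymes of amino acid breakdown were split. Of 22 tested, 5 were lower and 3 higher in healthy_LS-FMD (median log2 fold -0.05, beside 0.32 over all genes). Prodh2, which breaks down hydroxyproline, stood at 46.0 CPM in the healthy_LS-FMD section, against 98.2 CPM in the healthy section (2.14 times lower, interval 2.01 to 2.28), and Kmo, of the kynurenine pathway, at 37.5 CPM in healthy_LS-FMD against 75.8 CPM in healthy. Both were lower in each zone. Sds, serine dehydratase, which feeds serine into glucose synthesis, stood at 24.1 CPM in the healthy_LS-FMD section, against 10.1 CPM in the healthy section (2.40-fold higher, interval 2.14 to 2.69), but its log2 fold was -0.41 in medulla. Bcat2, the mitochondrial branched-chain aminotransferase, stood at 143 CPM in healthy_LS-FMD against 69.6 CPM in healthy. Phgdh, the first enzyme of serine synthesis, stood at 22.1 CPM in healthy_LS-FMD against 59.0 CPM in healthy, the lowest of the 4 sections.

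The autophagy and lysosome list had 3 of 18 genes higher and 1 lower (median 0.17). Over all genes the median was 0.32 and 26.6% were higher, so this list did not stand above all genes. Ulk1, the kinase that starts autophagy, stood at 58.3 CPM in the healthy_LS-FMD section, against 31.1 CPM in the healthy section (1.88-fold higher, interval 1.75 to 2.01). Becn1, of the complex that nucleates the autophagosome, stood at 149 CPM in healthy_LS-FMD against 84.1 CPM in healthy, and Tfeb, the transcription factor of lysosomal genes, at 65.7 CPM in healthy_LS-FMD against 41.1 CPM in healthy. The lower gene was Ctsb, the protease cathepsin B, at 460.1 CPM in healthy_LS-FMD against 700.1 CPM in healthy. In the iron and copper list none of 13 was higher and 1 lower (median 0.13), Fth1, the ferritin heavy chain, at 5647 CPM in the healthy_LS-FMD section, against 9316 CPM in the healthy section (1.65 times lower, interval 1.64 to 1.66). Of 7 class II histocompatibility genes 3 were higher (median 0.31), and of 25 interferon response genes 5 were higher and none lower (median 0.21, and -0.04 with cortex and outer stripe weighted equally). The all-gene medians were 0.32 and, with that weighting, 0.26, so the interferon list did not stand above all genes. Cd74, the class II invariant chain, stood at 844 CPM in healthy_LS-FMD against 694 CPM in healthy (log2 fold 0.28). Of 14 cytochrome P450 genes 6 were lower and 3 higher (median -0.45). Cyp2c11, a male-specific steroid hydroxylase of rat liver, stood at 36.3 CPM in the healthy_LS-FMD section, against 88.4 CPM in the healthy section, with 21.7 CPM in the PAN_LS-FMD section and 1.85 CPM in the PAN section, so that the healthy section had the highest level of the 4.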
